A study of Rattus norvegicus with 12 samples.

Results

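Insulin and insulin-like growth factor (IGF) signalling was followed through 10 genes in the L6 dorsal root ganglia of rats: the ligand Igf1, the binding proteins Igfbp2, Igfbp3 and Igfbp5, the receptors Igf1r and Insr, the adaptors Irs1 and Irs2, and the transcription factors Foxo1 and Foxo3. The genes were taken by name, and every gene probe whose transcript accession maps to one of these symbols was used. Of the 10 genes, 9 had a matched probe, with 13 probes in all among the 30367 on the array, and all 9 passed the filter on dim probes with 20849 genes in all. Foxo1 had no matched probe and was not analysed here.

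The ganglia came from male Fischer 344 rats in 3 groups of 4, each array labelled as a separate replicate. Young rats of 6 months ate freely (young_AL), and old rats of 25 to 28 months either ate freely (old_AL) or had been given food on 3 days a week from the age of 6 weeks, which lowered their calorie intake by about 40% relative to old_AL (old_CR). All rats were kept on a light and dark cycle with free access to water. The hour of collection and the time since the last meal are not given in the sources used here, so they cannot be told apart from the restriction. The 4 young_AL arrays lie on 1 slide and the 8 old arrays on another, so an effect of age and an effect of the slide cannot be told apart wherever young_AL is compared. The comparison of old_CR with old_AL lies within 1 slide. The labels do not say whether any sample pooled animals, and p-values measure only the spread between these samples.

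IGF-1 is a growth factor that supports the survival and outgrowth of sensory neurons, and in nerve it is made by glial and connective tissue cells as well as reaching them from blood. It binds the IGF-1 receptor, while IGF-binding proteins hold it in the extracellular fluid and set how much reaches the cell. The IGF-1 and insulin receptors are related tyrosine kinases that phosphorylate the adaptors IRS-1 and IRS-2, which pass the signal to PI3 kinase and AKT. AKT in turn keeps FoxO transcription factors out of the nucleus, and dietary restriction is known for lowering circulating IGF-1.

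Levels are given as log2 of the scanner's processed signal relative to the 75th percentile of the array, so that a level of 0 equals that percentile and a difference of 1 is a doubling. Levels are compared between arrays for a given probe, not between probes. Library old_AL 1 stood apart. Its 75th percentile was 7660 signal units, where the other 11 arrays had 2630 to 3110. Of its spots, 71.5% passed the scanner's background flag (78.8% to 84.1% elsewhere). It correlated with the rest at a median r of 0.929 (0.971 to 0.994 elsewhere). It was left out of the values below unless stated, which leaves 3 old_AL arrays, and values on all 12 arrays are named as such. The median residual spread per gene was 0.102 on 11 arrays and 0.363 on 12. The sensory neuron markers marked the tissue: 11 of 12 listed genes were tested, all 11 were well above background on each of the 11 arrays, and their mean log2 level lay between 4.59 and 4.70.

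The insulin receptor gene is a known transcriptional target of FoxO factors, a feedback from the end of the pathway to its start. A core FoxO word, TGTTTAC, or GTAAACA on the other strand, was searched in windows of 300 bases, 250 before and 50 after each RefSeq gene start (GRCr8). It was found in 1 of the 8 windows listed for the 10 genes, that of Insr, which is printed because it held the word. The word was also in 3 of the 18 windows listed for FoxO target genes, and in 3.78% of all 33469 windows. No window is listed for Irs2 or Foxo3. The Insr window is chr12:6128754-6129053 on the minus strand, and the capitals mark the word, which ends 93 bases before the start. A match is a description of letters and not a binding site.
Insr: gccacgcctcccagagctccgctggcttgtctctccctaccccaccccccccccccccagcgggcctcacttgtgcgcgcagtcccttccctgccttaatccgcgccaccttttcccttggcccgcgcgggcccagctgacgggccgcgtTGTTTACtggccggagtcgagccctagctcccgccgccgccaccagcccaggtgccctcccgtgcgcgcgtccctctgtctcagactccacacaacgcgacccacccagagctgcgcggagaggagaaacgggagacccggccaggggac

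No gene of the 10 passed the test in any comparison. The test was limma's moderated test over all 20849 genes with Benjamini-Hochberg adjustment at 0.05. For old_AL against young_AL, 0 of the 9 tested genes passed, where 3.24% of all genes did, and 3 of 9 had an unadjusted p under 0.05 against 23.1% of all genes. For old_CR against old_AL, 0 of 9 passed against 1.06% of all genes, with 1 of 9 under 0.05 unadjusted against 26.4%. For old_CR against young_AL, 0 of 9 passed against 2.41%, with 2 of 9 under 0.05 unadjusted against 18.3%. On all 12 arrays the count was again 0 of 9 in each comparison, where 0.0191%, 0.00478% and 0.0191% of all genes passed. The unadjusted count on 12 arrays was 0, 0 and 1 of 9. The smallest adjusted p among the 9 genes was 0.101 for age, 0.172 for diet and 0.105 for old_CR against young_AL. The median log2 difference of the 9 genes was 0.16, -0.195 and 0.02 in the 3 comparisons, beside 0.035, -0.054 and -0.017 over all genes. On 12 arrays the median of the 9 was -0.025, -0.04 and 0.02, so the sign of the age median turned with that array.

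**Figure D1:**
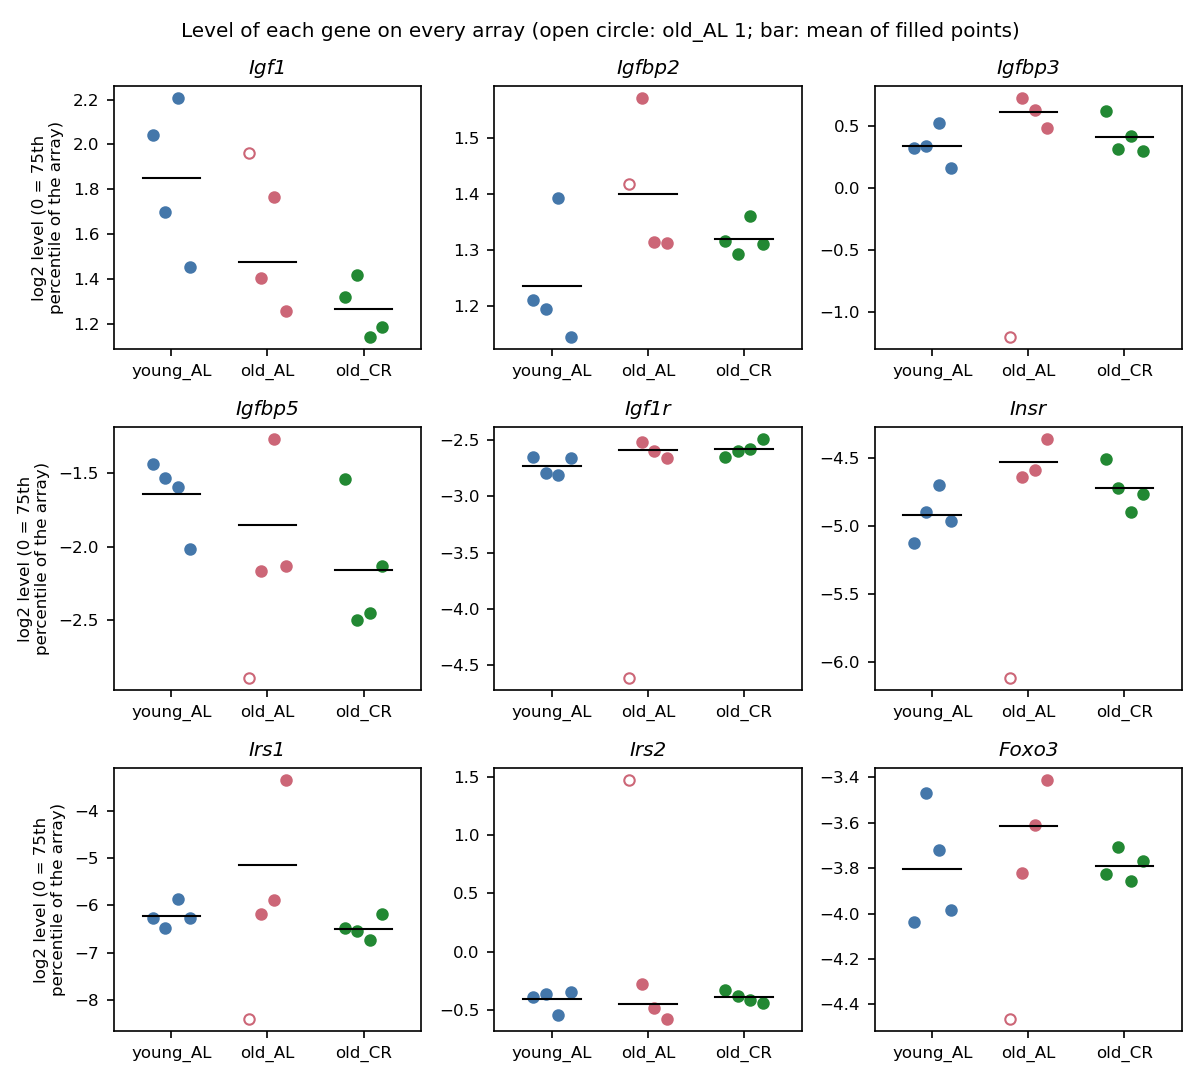
Log2 level of each of the 9 genes on every array, with 1 panel per gene and its own vertical scale, where 0 is the array's 75th percentile. Filled points are single arrays, bars are means of the filled points, and the open circle is old_AL 1, which lies far from the other old_AL arrays for Igf1r, Irs2 and Igfbp3. Igf1 in old_CR, from 1.14 to 1.42, lies below all 4 young_AL arrays.

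Igf1, the ligand, had its lowest mean level in old restricted ganglia. Its brighter probe, A_44_P366723, read 2.04, 1.70, 2.21 and 1.45 in young_AL. It read 1.41, 1.77 and 1.26 in old_AL 2 to 4, and 1.32, 1.42, 1.14 and 1.19 in old_CR. Every old_CR array lay below every young_AL array, by a gap of 0.03 between the nearest pair, and old_AL overlapped both groups. The young_AL spread (SD 0.338, n = 4) was wider than that of old_CR (SD 0.127, n = 4).

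The difference of old_CR from young_AL was -0.58 ± 0.169 (SE), a level 1.5-fold lower, with an unadjusted p of 0.00676 and an adjusted p of 0.105 from limma. It did not pass. Its 95% interval ran from -0.963 to -0.204. In that comparison 15.8% of all genes had groups that did not overlap. The second Igf1 probe, A_64_P052740, gave -0.60 ± 0.18 (adjusted p = 0.117). It read 0.38, -0.04, 0.38 and -0.32 in young_AL and -0.38, -0.39, -0.61 and -0.61 in old_CR, again without overlap. Both probes measure the same RNA samples, so the second adds no animals.

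Old_AL stood between the other groups for Igf1, at -0.37 ± 0.182 against young_AL (adjusted p = 0.253), and old_CR differed from old_AL by -0.21 ± 0.182 (adjusted p = 0.471). Neither difference passed. The interval of the diet difference, -0.62 to 0.2, holds both no change and a fall as large as the whole young to old_CR difference. Without any 1 of the 11 arrays in turn, the difference of old_CR from young_AL lay between -0.716 and -0.465 with adjusted p from 0.054 to 0.235. With limma array weights on all 12 arrays it was -0.663 and passed (adjusted p = 0.0202), where 1939 of 20942 genes passed. On 12 arrays without weights the age and diet differences of Igf1 were -0.253 and -0.33.

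Markers of several cell types also differed between old_CR and young_AL, a comparison in which 2.41% of all genes passed. Of 11 tested sensory neuron markers 2 fell, the neurofilament genes Nefl and Nefh, at -0.213 and -0.224. The median of that list was -0.052, and 3 of the 11 markers were above 0. Of 8 markers of myelinating Schwann cells, 2 fell in old_CR relative to young_AL, Pmp22 by 0.295 and Sox10 by 0.309 on the log2 scale, and the list's median was -0.352. Their summed signal was 150 to 169 times the 75th percentile in young_AL and 127 to 146 times in old_CR. All 8 were well above background on each array, and the difference of 1 of them, Egr2, was above 0, at 0.182. Of 6 tested fibroblast markers, 1 fell, Col1a1, a collagen chain, by 0.918. The collagen genes Col1a2 and Col3a1 differed by -0.469 and -0.683 and did not pass. The 3 markers above 0 were Lum, Pdgfra and Dcn, at 0.166, 0.014 and 0.007. The summed signal of the list was 39.4 to 49.5 in young_AL and 26.9 to 38.2 in old_CR. Of 6 satellite glia markers 2 fell, the glutamate transporter Slc1a3 by 0.403 and the lipid-binding protein Fabp7 by 0.604. The list's median was -0.228, and 2 of the 6 were above 0, Glul at 0.203 and Cdh19 at 0.063. The summed signal of the 6 was 4.77 to 5.35 in young_AL and 4 to 4.39 in old_CR. Markers that rose in old_CR were Lyve1 of resident macrophages, by 0.824, and Adipoq of adipocytes, by 3.623. Aqp4, listed for central glia, also rose, by 1.487. These were each the single marker of their list to pass, of 9, 2 and 2 tested. The adipocyte list was dim, with a summed signal of 0.0125 to 0.0288 in young_AL and 0.0346 to 0.107 in old_CR. On each young_AL array only 1 of its 2 tested markers was well above background. Of the 4 central glia markers listed, Mog and Olig2 did not pass the filter on dim probes, and Slc1a2, at 0.121, did not pass the test. The summed signal of the 2 tested was 0.043 to 0.0548 in young_AL and 0.118 to 0.151 in old_CR. The part of these cells in the Igf1 values was not tested. In a whole ganglion, fewer cells of a type and less RNA per cell cannot be told apart.

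Genes with the pattern most like that of Igf1 over the 11 arrays were Tmprss5, Fgfrl1 and Adgrg6. The likeness is the root mean square distance between values centred over the arrays, which was 0.16, 0.168 and 0.175 for the 3 genes.

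None of the 3 binding proteins passed in any comparison, and their groups overlapped throughout. Igfbp2, a carrier of IGF-1 and IGF-2, read 1.21, 1.19, 1.39 and 1.14 in young_AL with its brighter probe, A_64_P039026. It read 1.57, 1.31 and 1.31 in old_AL 2 to 4, and 1.32, 1.29, 1.36 and 1.31 in old_CR. The groups overlapped, and old_CR was the tightest group (SD 0.0285, n = 4). The age difference was 0.16 ± 0.0756 (adjusted p = 0.23) and the diet difference -0.08 ± 0.0756 (adjusted p = 0.512). The second probe, A_64_P032415, gave 0.173 ± 0.0998 for age (adjusted p = 0.33) and -0.039 ± 0.0998 for diet (adjusted p = 0.828). On 12 arrays the brighter probe gave 0.168 and -0.084, and the second probe -0.268 and 0.402, with both signs turned.

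Igfbp3, the main carrier of IGF-1 in blood, read 0.32, 0.34, 0.53 and 0.16 in young_AL. It read 0.73, 0.63 and 0.48 in old_AL 2 to 4, and 0.62, 0.32, 0.42 and 0.30 in old_CR. Old_AL had the highest mean, but its lowest array lay below the highest of each other group. The age difference was 0.27 ± 0.104 (adjusted p = 0.163), and old_CR differed from old_AL by -0.197 ± 0.104 (adjusted p = 0.253). With old_AL 1, at -1.21, included, the age difference was -0.181 and the diet difference 0.258, so both signs turned with that array.

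Igfbp5, a binding protein that also attaches to extracellular matrix, varied most among the binding proteins within a group. It read -1.44, -1.54, -1.59 and -2.02 in young_AL, -2.16, -1.27 and -2.13 in old_AL 2 to 4, and -1.54, -2.50, -2.45 and -2.13 in old_CR. Old_CR held both low arrays and 1 array, old_CR 1, at the level of young_AL. The difference of old_CR from young_AL was -0.51 ± 0.262, with an interval of -1.099 to 0.08 (adjusted p = 0.347). The age difference was -0.21 ± 0.283 and the diet difference -0.3 ± 0.283, both smaller than or about as large as their errors. On 12 arrays they were -0.469 and -0.04.

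**Figure D2:**
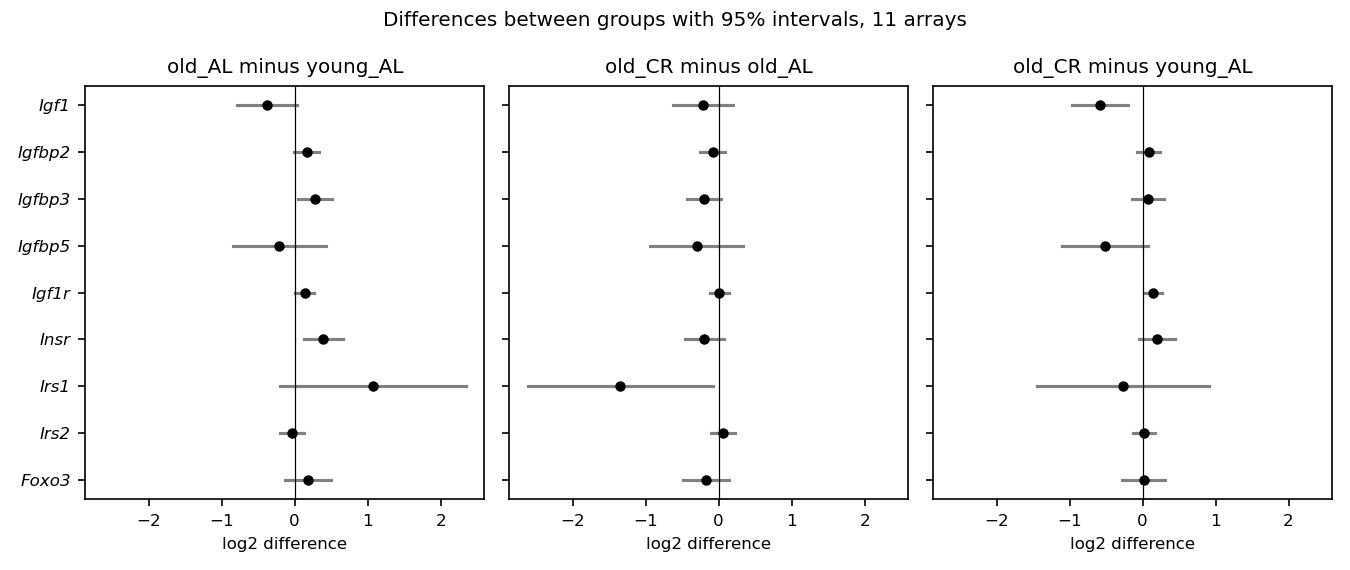
Log2 difference between groups for the 9 tested genes on 11 arrays, in 3 panels for the 3 comparisons, with points for the estimates and bars for the 95% intervals of limma's fit. No difference passed the adjusted threshold. The widest intervals belong to Irs1, whose diet difference of -1.35 runs from -2.618 to -0.074.

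Igf1r, the IGF-1 receptor, was the most closely measured of the receptors, with 10 spots of its probe on every array. It read -2.65, -2.80, -2.81 and -2.66 in young_AL, -2.52, -2.60 and -2.66 in old_AL 2 to 4, and -2.65, -2.60, -2.58 and -2.49 in old_CR. The 3 groups overlapped, with both old groups at the upper end. The difference from young_AL was 0.14 ± 0.0591 for old_AL (adjusted p = 0.207) and 0.15 ± 0.0547 for old_CR (adjusted p = 0.196). The diet difference was 0.01 with an adjusted p of 0.934. The SD over arrays of a group was 0.0677 to 0.0862, and that of single spots within an array 0.0287 to 0.0735. The array level is a mean over the spots used, so the error of that mean is smaller than the SD of single spots. On old_AL 1 the probe gave -4.61 from 9 of its 10 spots, and the 12-array differences were -0.37 for age, a turned sign, and 0.515 for diet.

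The insulin receptor, Insr, gave different answers with its 2 probes, each present as 1 spot. Probe A_64_P085396, the brighter, read -5.12, -4.89, -4.69 and -4.96 in young_AL. It read -4.64, -4.58 and -4.36 in old_AL 2 to 4, and -4.50, -4.72, -4.90 and -4.76 in old_CR. The 3 old_AL arrays lay above all young_AL arrays. The age difference was 0.39 ± 0.119, with an unadjusted p of 0.00893 and an adjusted p of 0.101, and 19.6% of all genes had groups that did not overlap there.

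Probe A_64_P118402 gave an age difference of -0.001 ± 0.115. It read -4.90, -5.06, -5.23 and -5.10 in young_AL, -4.89, -5.01 and -5.32 in old_AL 2 to 4, and -4.83, -5.09, -4.86 and -5.04 in old_CR. Its groups overlapped throughout. The mean of both probes gave 0.195 (adjusted p = 0.101). The diet difference of the brighter probe was -0.195 ± 0.119 (adjusted p = 0.312) and that of the other probe 0.12. Without old_AL 4 the brighter probe gave 0.306 for age and -0.111 for diet, and the other probe 0.122 and -0.004. On 12 arrays the brighter probe gave -0.008 for age and 0.203 for diet, so both signs turned. Under quantile normalization the age difference of the brighter probe was 0.083 and the diet difference 0.134, a turned sign. With normexp background correction the brighter probe passed for age, at 0.329 (adjusted p = 0.0127), and for diet, at -0.239 (adjusted p = 0.034). Under that setting 3826 of 20849 genes passed for age, 86.3% of them rising. For diet 4703 passed, 89.3% of them falling. With normexp the other probe passed as well, at 0.289 for age (adjusted p = 0.0283) and -0.246 for diet (adjusted p = 0.0424). Without normexp its age difference was -0.001 ± 0.115, near 0, and its diet difference 0.12, of the other sign.

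**Figure D3:**
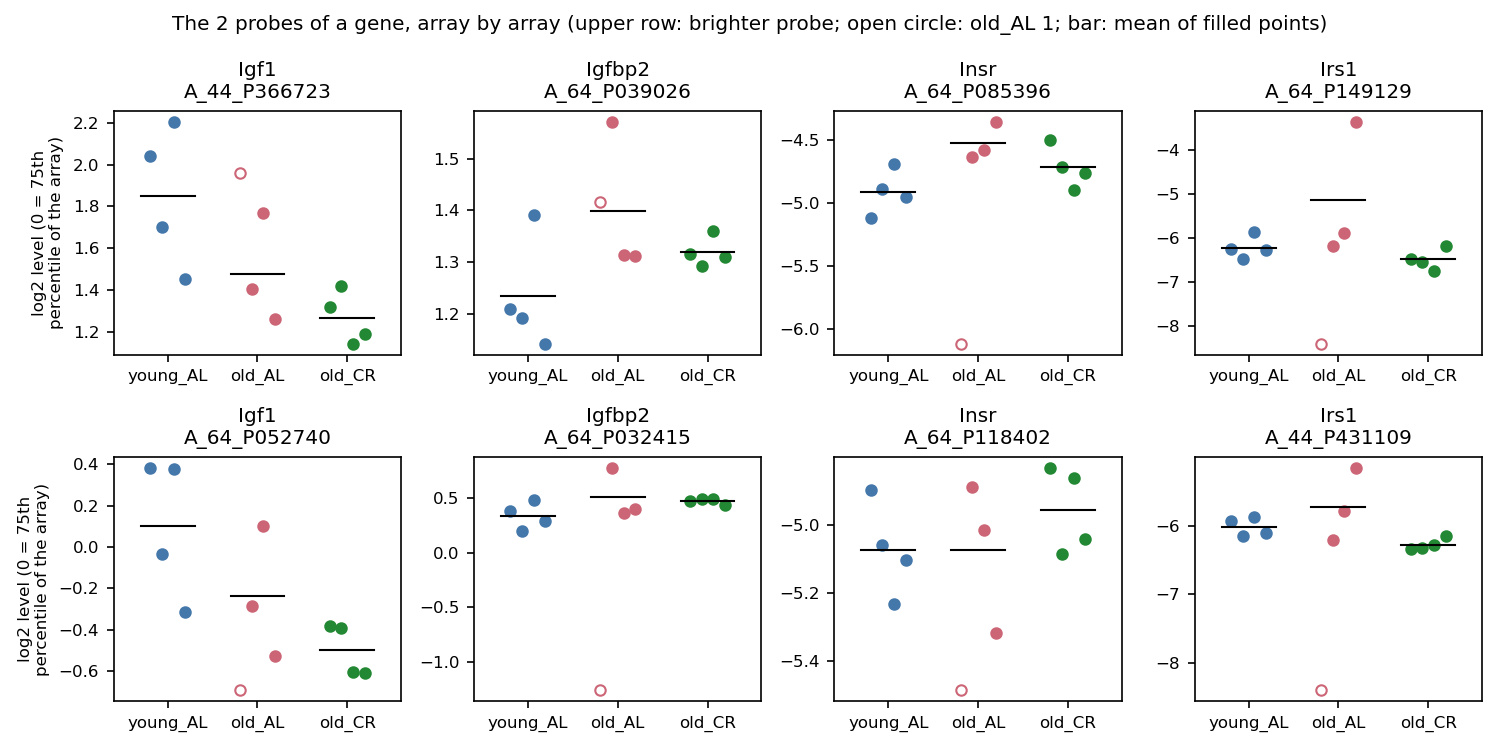
Log2 level on every array for the 4 genes with 2 probes, Igf1, Insr, Irs1 and Igfbp2, with the brighter probe in the upper row and each panel on its own scale (0 is the array's 75th percentile). Points are arrays, bars are means without old_AL 1, and the open circle is old_AL 1. The Igf1 probes show the same order of groups, the Insr probes do not, and both Irs1 probes are high on old_AL 4.

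Irs1, an adaptor below both receptors, had the largest differences of the 9 genes, and their size rested on 1 array and on the probe chosen. Probe A_64_P149129, the brighter by its mean over the 11 arrays, read -6.26, -6.48, -5.87 and -6.26 in young_AL. It read -6.17, -5.89 and -3.36 in old_AL 2 to 4, and -6.48, -6.54, -6.74 and -6.18 in old_CR. The value of old_AL 4 stood 2.54 log2 units above the next of the old_AL arrays, while old_AL 2 and old_AL 3 lay among the young_AL arrays. The other probe, A_44_P431109, with 10 spots, was also highest on old_AL 4, at -5.16 beside -6.22 and -5.79. It read higher than A_64_P149129 on 8 of the 11 arrays, so the brightest-probe rule chose A_64_P149129 through its value on old_AL 4.

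The age difference of A_64_P149129 was 1.08 ± 0.566 (adjusted p = 0.285) and, without old_AL 4, 0.183. Its diet difference was -1.35 ± 0.566 (adjusted p = 0.172) and, without old_AL 4, -0.453 (adjusted p = 0.221 with each probe tested on its own). For the diet comparison the groups did not overlap, as for 23.5% of all genes, but the nearest arrays read -6.17 in old_AL and -6.18 in old_CR. Probe A_44_P431109 gave 0.295 ± 0.2 for age (adjusted p = 0.403) and -0.55 ± 0.2 for diet (adjusted p = 0.134), and 0.015 and -0.273 without old_AL 4. With normexp A_44_P431109 passed for diet, at -0.37 (adjusted p = 0.024), and A_64_P149129, at -0.785, did not (adjusted p = 0.0752). With 1 probe per gene, 4703 of 20849 genes passed for diet with normexp, 89.3% of them falling. On all 12 arrays the age and diet differences were 0.262 and -0.532 for A_64_P149129 and -0.371 and 0.114 for A_44_P431109.

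Array old_AL 4 read high for dim genes in general. Over the 4088 genes with a mean level under -5, which include Irs1, its median deviation was 0.66, against -0.08 to 0.019 on the other 10 arrays. Over the 4054 genes from -5 to -3, which include Insr and Foxo3, it was 0.181 against -0.044 to 0.027. Genes under -5 had a median age difference of 0.289, with 77.2% above 0, and a median diet difference of -0.361, with 15.8% above 0. For genes over 1, such as Igf1 and Igfbp2, those medians were -0.008 and 0.003. The 3 genes most like Irs1 by the same distance, Atp8b1, Tgm3 and Apoa2 (0.196, 0.211 and 0.217), were each highest on old_AL 4, where Atp8b1 read -4.17 beside -6.82 and -6.58 on old_AL 2 and 3. The part of this array's shift in the Irs1 and Insr values was not tested beyond the values without it given above.

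**Figure D4:**
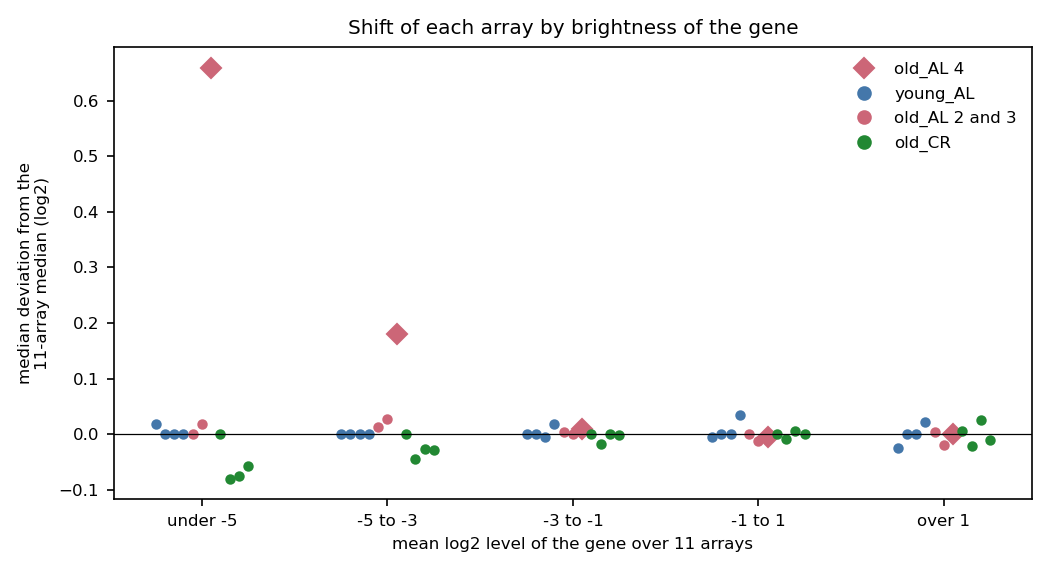
Median deviation of each array's genes from the median over 11 arrays (vertical axis, log2), for genes grouped by mean log2 level (horizontal axis), with 1 marker per array. Array old_AL 4 lies at 0.66 for genes under -5 and 0.181 for genes from -5 to -3, and the other arrays stay near 0.

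Irs2, the other adaptor, had close values in all groups. It read -0.39, -0.36, -0.54 and -0.35 in young_AL, -0.28, -0.49 and -0.58 in old_AL 2 to 4, and -0.33, -0.38, -0.41 and -0.44 in old_CR. The groups overlapped fully. Its differences were -0.04 ± 0.0748 for age, 0.06 ± 0.0748 for diet and 0.02 ± 0.0692 for old_CR against young_AL. The interval of the last, -0.135 to 0.176, leaves room for changes of about that size. Array old_AL 1 gave 1.47, far above the rest, and on 12 arrays the age and diet differences were 0.443 and -0.423, with both signs turned.

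Foxo3, the FoxO factor measured here, read -4.04, -3.47, -3.72 and -3.98 in young_AL. It read -3.82, -3.61 and -3.41 in old_AL 2 to 4, and -3.83, -3.71, -3.86 and -3.77 in old_CR. The groups overlapped, and the old_CR arrays were the closest to one another (SD 0.0665, n = 4). The differences were 0.19 ± 0.14 for age (adjusted p = 0.437), -0.175 ± 0.14 for diet (adjusted p = 0.433) and 0.01 for old_CR against young_AL (adjusted p = 0.974). On 12 arrays the age and diet differences were -0.025 and 0.038, with both signs turned.

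By the range of their 3 group means, the genes ran from Irs1 (1.35) and Igf1 (0.58) through Igfbp5 (0.51), Insr (0.39), Igfbp3 (0.27), Foxo3 (0.19), Igfbp2 (0.16) and Igf1r (0.15) to Irs2 (0.06). The place of Irs1 rests on probe A_64_P149129 and on old_AL 4: its range was 0.453 without that array, and 0.552 with A_44_P431109, both under that of Igf1. The order is a description of spread between groups, and neighbours in that order were not tested against each other.

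Beyond these genes, 77 others of the pathway were listed, from ligands to FoxO targets. Of them, 68 had a probe and 67 were tested. For age 2 rose and 0 fell, for diet 0 rose and 2 fell, and for old_CR against young_AL 1 rose and 0 fell, beside 3.24%, 1.06% and 2.41% of all genes. Their median differences were 0.035, -0.025 and 0.01. No gene passed among the 8 tested ligands and binding proteins, the 2 other receptors, the 12 adaptors and brakes or the 11 mTOR pathway genes. Nor did Foxo4 pass, the FoxO factor tested in this list. It differed by 0.041 for age, -0.109 for diet and -0.067 for old_CR against young_AL. Among the 17 of PI3 kinase and AKT signalling, 1 rose with age, and among the 16 FoxO targets, 1 rose with age, 2 fell with diet and 1 rose in old_CR relative to young_AL. On all 12 arrays 0 of them passed in each comparison.

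**Figure D5:**
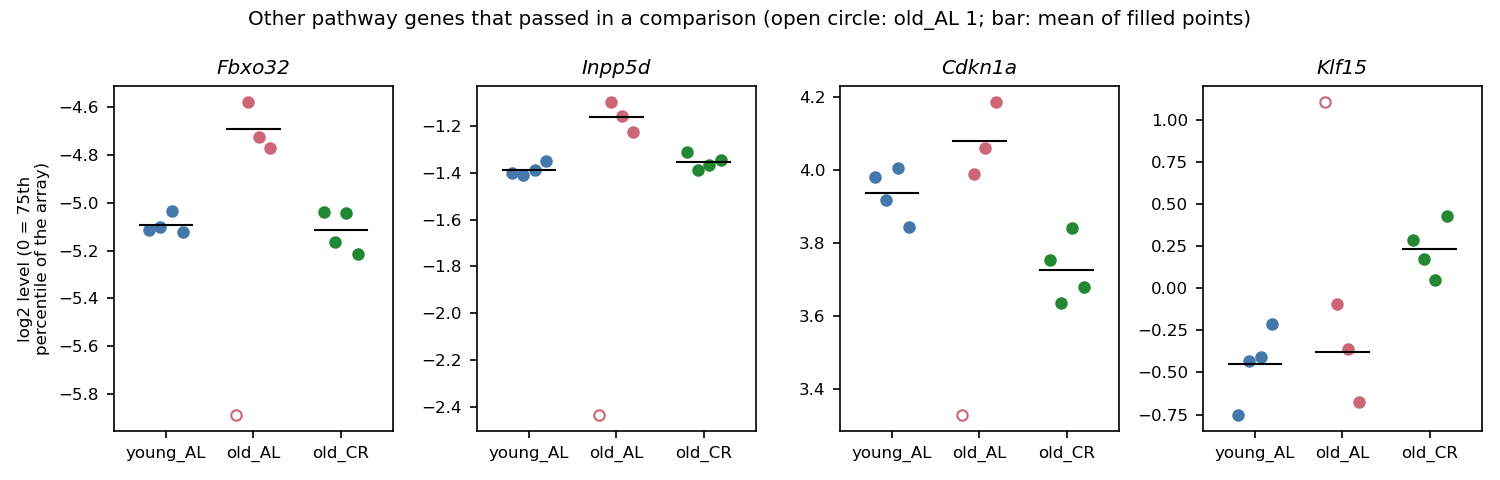
Log2 level on every array for the 4 other pathway genes that passed in a comparison on 11 arrays, with the groups along the horizontal axis, filled points for arrays, bars for their means and an open circle for old_AL 1. Each panel has its own scale. The 3 old_AL points of Fbxo32, from -4.77 to -4.58, lie above both other groups, and the old_CR points of Klf15 lie above 0.

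Fbxo32, which encodes the muscle ubiquitin ligase atrogin-1 and is induced by FoxO factors there, was higher in old_AL than in both other groups: it rose with age and fell with diet. It read -5.11, -5.10, -5.04 and -5.12 in young_AL, -4.58, -4.72 and -4.77 in old_AL 2 to 4, and -5.04, -5.16, -5.04 and -5.21 in old_CR. Old_AL overlapped neither group, where 19.6% of all genes had groups without overlap for age and 23.5% for diet. These comparisons share the old_AL arrays. The level lay near -5, and of genes from -5 to -3, 72.6% of age differences and 22.6% of diet differences were above 0. Under -5 those shares were 77.2% and 15.8%. The age difference was 0.40 ± 0.0606 (adjusted p = 0.0188) and the diet difference -0.42 ± 0.0606 (adjusted p = 0.0289). Old_CR differed from young_AL by -0.02. The signal was low, 79 to 112 units on the 11 arrays, and on 12 arrays the differences were 0.103 and -0.124. Under quantile normalization they were 0.031 and -0.019, with old_AL 4 at -5.13 beside -4.22 and -4.38. Leaving out young_AL 2 ended the age call (adjusted p = 0.0521), and the diet call held in 5 of 11 leave-outs. It ended without young_AL 3, old_AL 4 or any of the old_CR arrays. Fitted with only the groups compared, neither passed (adjusted p = 0.0935 and 0.121).

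Inpp5d encodes SHIP1, a lipid phosphatase of blood and immune cells that limits PI3 kinase signalling. It rose with age, from -1.40, -1.41, -1.39 and -1.35 in young_AL to -1.10, -1.16 and -1.23 in old_AL 2 to 4, by 0.23 ± 0.0381 (adjusted p = 0.0256). The diet difference of -0.19 did not pass (adjusted p = 0.0509). Its second probe gave an age difference of 0.37 ± 0.1 (adjusted p = 0.0786). On 12 arrays the age difference was -0.092 (adjusted p = 0.828), a turned sign. The call ended without young_AL 2, young_AL 3 or old_AL 3 (adjusted p = 0.0659, 0.0776 and 0.0537), with median centring (0.125, adjusted p = 0.108) and with only the groups compared (adjusted p = 0.114). Macrophage markers moved with it: 3 of 9 rose with age, beside 3.24% of all genes that passed. All 9 had groups that did not overlap, beside 19.6% of all genes. Their summed signal was 7.4 to 10.1 times the 75th percentile in young_AL and 11 to 15.9 times in old_AL. Of 4 T cell markers 1 rose, with a summed signal of 0.064 to 0.107 in young_AL and 0.169 to 0.248 in old_AL. The part of these cells in the Inpp5d value was not tested.

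Cdkn1a encodes the cell cycle inhibitor p21. It fell with diet, from 3.99, 4.06 and 4.19 in old_AL 2 to 4 to 3.75, 3.64, 3.84 and 3.68 in old_CR, by 0.35 ± 0.0662 on the log2 scale (adjusted p = 0.0459). Its second probe gave -0.38 ± 0.257 (adjusted p = 0.357). On 12 arrays the difference was -0.164, and of the 11 leave-outs it passed in 1, without old_AL 2. It also did not pass with no filter (adjusted p = 0.0595), with the mean of its probes (adjusted p = 0.123) or with only the groups compared (adjusted p = 0.122).

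Klf15, a transcription factor of fasting metabolism, rose in old_CR relative to young_AL. It read -0.755, -0.43, -0.41 and -0.215 in young_AL and 0.29, 0.18, 0.05 and 0.43 in old_CR, a difference of 0.69 ± 0.148 (adjusted p = 0.0478). Old_AL 2 to 4 read -0.09, -0.36 and -0.68, and the diet difference of 0.61 did not pass (adjusted p = 0.0755). Of the 11 leave-outs it passed in 3, without young_AL 4, old_AL 2 or old_AL 4. The call also ended on 12 arrays (adjusted p = 1), with quantile normalization (0.0551), with median centring (0.0604) and with no filter (0.0788). Klf15 is also known to follow the time of day, and the hour of collection and the last meal cannot be told apart from restriction here.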

How the data were processed

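Total RNA of 12 ganglion samples was labelled with Cy3 and read on 1-colour Agilent arrays, per the labels' protocols. The deposited scanner files give intensity per spot as gProcessedSignal, made with Agilent Feature Extraction 10.7, per the file headers and, for the version, the submitters' processing notes. The scaling applied by the authors after that is not given in the sources used here, and the deposited series table holds the same signals. Spots of a probe, without those the scanner flagged as outliers, were averaged on the log2 scale and each array's 75th percentile was subtracted. Probes were named through RefSeq accessions (17998 of 30367 probes), a gene was read by the probe brightest over the 11 arrays, kept under every alternative, and a probe had to exceed background on at least 4 arrays. Groups were compared with limma 3.58.1 in R 4.3.3, 1 mean per group, with Benjamini-Hochberg adjustment over all genes at 0.05. The fit was checked on simulated data. Pathway genes are named where they passed. The genes, the lists and the choice to leave out old_AL 1 were made with earlier results of these data known. The number of arrays limits the precision. Alternatives covered array choice, scaling, background, filter, probe choice, variance model, replicate block and leave-outs.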

Additional observations from a re-analysis of the deposited data

Results flagged for a closer look

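A gap test within groups of 4 marked 4 values, each of them on old_AL 1, where the array lay apart from the other 3 arrays of its group by more of the group's range than Dixon's critical value allows. Igf1r read -4.614, Insr probe A_64_P085396 read -6.116 and Igfbp3 read -1.207, all below the other old_AL arrays. Irs2 read 1.472, above them. Of the 13 probes, 4 were marked in old_AL and 0 in young_AL or old_CR, where chance marks about 1 in 20 groups. The Insr value of old_AL 1 was not well above background, and neither were its values for both Irs1 probes.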

How the results depend on the processing

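None of the 9 genes passed in 11 leave-outs of 1 array (0 to 0), and 3 of their values passed under another setting, given above, so the counts passing were 1 with array weights (old_CR against young_AL) and, with normexp, 1 for age and 1 for diet. Fainter probes, an alternative added after seeing the data, passed with normexp for Insr (0.289 for age and -0.246 for diet) and for Irs1 in diet (-0.37). Without normexp the Insr values were -0.001 for age, near 0, and 0.118 for diet. Of the 9 genes' values under alternatives, 618 kept their sign and did not pass, 3 kept their sign and passed, and 27 that never passed turned. Over all genes, the calls for age numbered 4 on 12 arrays, 1019 with weights, 1067 with quantile normalization, 2968 with median centring, 3826 with normexp, 27 with only the groups compared, 1089 with an intensity trend and 20 with the replicate block. For diet they numbered 1, 922, 393, 2107, 4703, 0, 865 and 1 in that order, 128 with no filter and 370 with the filter on every array. For old_CR against young_AL they were 4 on 12 arrays, 1939 with weights, 226 with no filter, 836 with only the groups compared and 17 with the block. Leave-outs gave 70 to 402, 1 to 920 and 42 to 862. The share of calls that fell was 38.5% for age and 74.8% for diet, and 77.1% and 30.5% with quantile normalization, 86.9% and 13.3% with median centring, and 13.7% and 89.3% with normexp. For the other pathway genes, age gave 0 on 12 arrays, with only the groups compared and with the block, 4 with weights, 10 with median centring and 13 with normexp. Diet gave 0 on 12 arrays, with only the groups compared and with the block, 8 with weights and with a trend, 13 with median centring, 15 with normexp, 1 with no filter and 4 with the filter on every array. Old_CR against young_AL gave 0 on 12 arrays, with quantile normalization, median centring, no filter and the block, 5 with weights and 3 with a trend. Leave-outs gave 0 to 3, 0 to 5 and 0 to 2. These counts are of a list with 67 genes tested on the 11 arrays. Beside them, of all 20849 genes, 2968 passed for age and 2107 for diet with median centring. With normexp 3826 and 4703 passed. With weights 1019, 922 and 1939 of 20942 genes passed in the 3 comparisons. With a trend 865 of 20849 passed for diet and 741 for old_CR against young_AL. Inpp5d turned to -0.092 for age on 12 arrays. The causes were not tested. Replicate numbers do not pair the samples (correlations -0.088 to 0.086), so they share only a number; with the block all 5 pathway calls ended (adjusted p = 0.0676 to 0.139). Dim signal limits Irs1, Insr and Fbxo32.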
